A study of Mus musculus with 9 samples.

Results

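The genes described here are the mouse genes whose symbol is Zfp (zinc finger protein) followed by a number, as listed in a table of RNA-seq values of splenic T cells kept in 3 media. Such a symbol was borne by 75 of the 2889 listed genes. Zfp36, which encodes an RNA-binding protein with CCCH fingers, was left out, and the other 74 are the members. The choice among the listed genes was by name alone. The list itself had been selected on measured values, since it holds only genes that the authors called changed in these samples.

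Most Zfp genes encode proteins with C2H2 zinc fingers, in which a pair of cysteines and a pair of histidines hold a zinc ion and a run of such fingers reads a DNA sequence. The largest class carries a KRAB box at the other end of the protein. The KRAB box recruits the co-repressor Trim28, which brings in the histone methyltransferase Setdb1 and heterochromatin proteins, and the class is best known for silencing transposable elements. KRAB zinc finger genes lie in tandem clusters, arose by repeated local duplication and are generally expressed at low levels. C2H2 proteins without a KRAB box include BTB domain factors, activators and structural chromatin proteins.

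CD3+ T cells were taken by negative selection from the spleens of 3 wild-type C57BL/6 mice, and each mouse gave 1 sample for each medium. The media were unconditioned RPMI, adipocyte conditioned medium and stromal cell conditioned medium, with 3 samples a group and 4 h of incubation at 37 °C. The sources used here give neither the origin of the adipocytes and stromal cells nor the age of the mice. Each library is labelled with its mouse, so the 3 samples of a group come from 3 animals. The values are normalized counts, that is, reads of a gene divided by the authors' size factor of the library. Reads on the listed genes came to between 6522742 and 13758643 per library, of which 54569 to 116695 were on the 74 members. Of 12 T cell markers 4 are listed, the CD3 chain genes Cd3e and Cd3g and the co-receptor genes Cd8a and Cd8b1, with summed normalized counts of 86513 to 97969 in unconditioned, 72070 to 73297 in stromal and 32578 to 35237 in adipocyte medium.

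The table holds only genes that the authors had called changed in 1 or both conditioned media. Their table for adipocyte medium holds 73 of the 74 members, all but Zfp184, and their table for stromal medium holds 3, which are Zfp184, Zfp414 and Zfp839. Counts of changed members against unconditioned medium therefore repeat that choice in part, and the shares over all 2868 tested genes are printed as the background of each comparison.

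In adipocyte medium 62 of the 74 members were lower than in unconditioned medium and 12 were higher (limma, Benjamini-Hochberg adjusted p under 0.05). Over all tested genes 63.4% were called lower and 33.8% higher, against 83.8% and 16.2% of the members. The median log2 fold change of the members was -1.23, against -1.03 for all tested genes, and it was also -1.23 with Zfp366, which had no read in adipocyte medium, set at its bound. All 74 members moved the same way in each of the 3 mice. The share of all tested genes that did so was not counted. Ranges that do not overlap, whose shares are given below, always give such agreement. At least 2-fold falls were called for 55 members (52.2% of all tested genes) and at least 4-fold falls for 10 (11.7%). On the upper side 7 members rose at least 2-fold (24.1% of all tested genes) and 1, Zfp651, at least 4-fold (7.15%). The value ranges of the 3 samples did not overlap between these media for any of the 62 lower and 12 higher members, and over all tested genes such separation was seen in 63.4% on the lower and 33.6% on the higher side. In a bulk sample fewer cells of a type and less RNA per cell cannot be told apart.

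In stromal medium 26 members were lower and 8 higher, where 36.6% and 21.1% of all tested genes were called, and 40 members were not past the threshold. The median was -0.29, against -0.17 over all tested genes. Of the members 60 moved the same way in all 3 mice, which was not counted over all tested genes. Called falls of at least 2-fold were seen in 3 members (Zfp414, Zfp808 and Zfp839; 11.9% of all tested genes) and rises of at least 2-fold in 2 (Zfp651 and Zfp184; 7.71%). The ranges did not overlap for 40 members on the lower side (44.2% of all tested genes) and 10 on the higher side (25.1%). Without the libraries of mouse 2, and also without those of mouse 3, 17 members were lower in stromal medium. Between the conditioned media 59 members were lower and 9 higher in adipocyte than in stromal medium, against 57.2% and 33.8% of all tested genes, with a median of -0.87 against -0.60. Of these, 27 were at least 2-fold lower (32.9% of all tested genes) and 3 at least 2-fold higher (16.8%), and the ranges did not overlap for 57 on the lower side (56.2%) and 9 on the higher (33.4%). The 3 comparisons share samples with each other and are not independent.

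These directions stand on the authors' scaling of the libraries. A median of ratios taken over the listed genes moved the median of all tested genes by 0.93 in adipocyte and 0.36 in stromal medium on the log2 scale. This method takes most genes as unchanged, while the listed genes were selected as changed. In adipocyte medium it therefore brings a fall near the all-gene median close to 0 by construction. A call lost under it does not show that the fall was absent. Under this rescaling 28 members were lower and 12 higher in adipocyte medium (36.5% and 37.6% of all tested genes), the 28 being among the 62. The members' median was then -0.31 against -0.11 for all tested genes. In stromal medium 6 were lower and 19 higher under it (19.6% and 39.3% of all tested genes), and the members' median turned to 0.07, against 0.19 for all tested genes. TMM factors, which rest on the same premise and the same genes, moved the all-gene median by 0.45 and 0.15. All 62 falls and all 12 rises in adipocyte medium were called in the same direction with TMM. All 12 rises in adipocyte medium and all 8 in stromal medium kept their call under both scalings. Both scalings moved changes against unconditioned medium upward, so they could hardly undo a rise and do not test the rises.

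**Figure D1:**
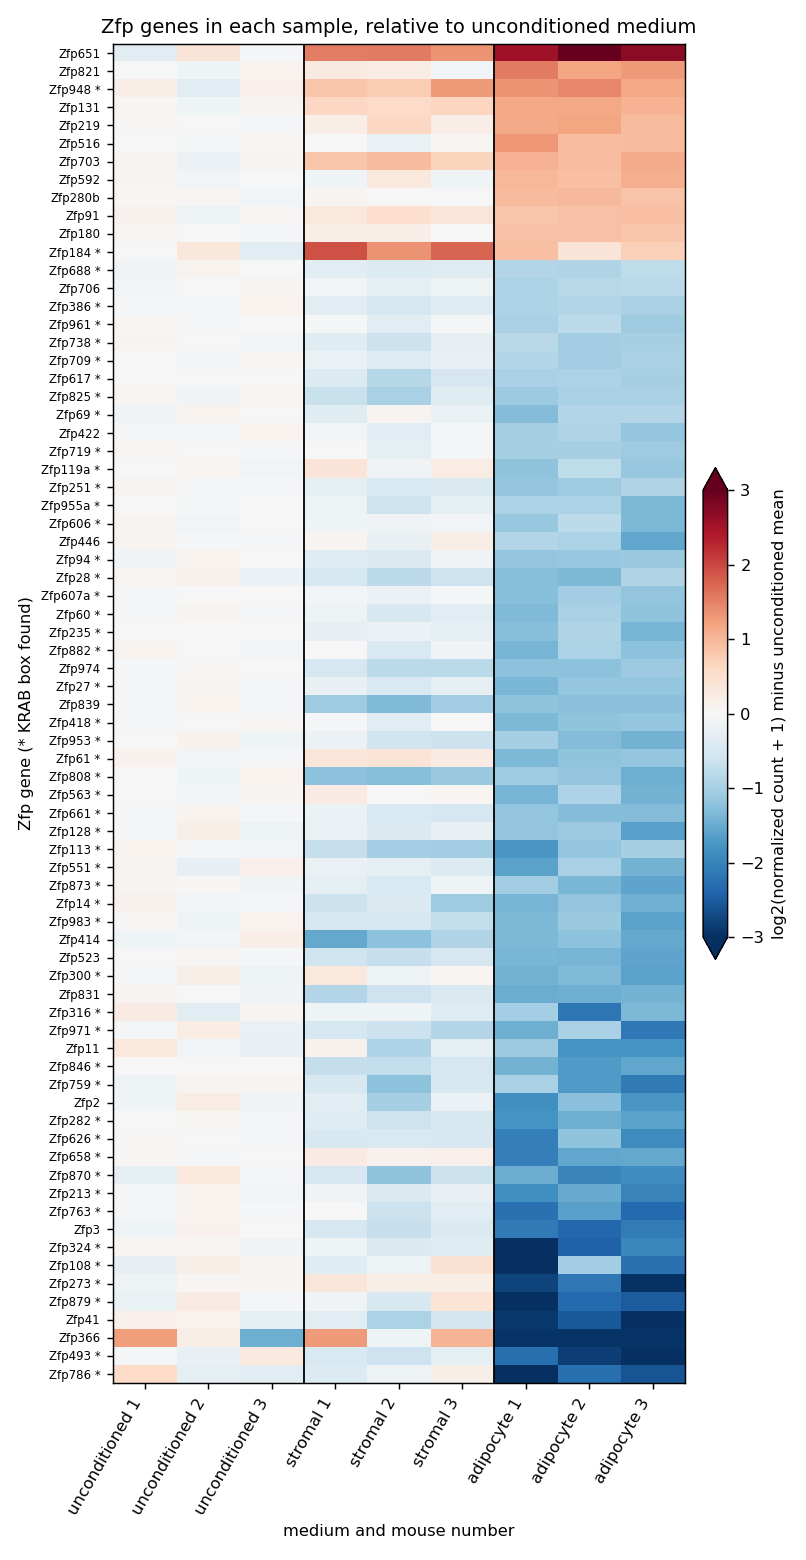
Values of the 74 Zfp genes in each of the 9 libraries, as log2(normalized count + 1) minus the mean of the 3 unconditioned libraries, with genes ordered by their change in adipocyte medium and an asterisk at genes with a KRAB box. The adipocyte columns are blue for the 62 lower genes and red for the 12 higher ones, and the stromal columns lie between the other media for most genes.

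Promoter sequence is shown for 4 members that stand for the patterns described next. Zfp651 had the largest rise in adipocyte medium and Zfp324 was among the largest falls. Zfp948 and Zfp983 are neighbours on a chromosome and moved in opposite directions. The sequences are the 250 bases before the annotated start in RefSeq (build GRCm38.p6), all on the plus strand, written 5′ to 3′, at chr9:121759783-121760032 for Zfp651, chr7:12965588-12965837 for Zfp324, chr17:21566728-21566977 for Zfp948 and chr17:21650361-21650610 for Zfp983. Capitals mark every match, on either strand, to the GC box GGGCGG or the CCAAT box CCAAT, the motifs among those searched that were found in these windows.
Zfp651: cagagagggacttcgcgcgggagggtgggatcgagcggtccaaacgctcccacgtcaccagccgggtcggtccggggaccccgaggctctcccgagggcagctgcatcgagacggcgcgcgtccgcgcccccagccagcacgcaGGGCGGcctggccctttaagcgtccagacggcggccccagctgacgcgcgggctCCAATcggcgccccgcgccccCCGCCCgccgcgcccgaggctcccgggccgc
Zfp324: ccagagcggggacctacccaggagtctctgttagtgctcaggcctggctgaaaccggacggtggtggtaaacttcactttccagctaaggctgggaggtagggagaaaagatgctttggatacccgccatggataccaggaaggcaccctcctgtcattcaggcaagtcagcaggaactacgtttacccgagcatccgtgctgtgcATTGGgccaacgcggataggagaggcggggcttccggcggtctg
Zfp948: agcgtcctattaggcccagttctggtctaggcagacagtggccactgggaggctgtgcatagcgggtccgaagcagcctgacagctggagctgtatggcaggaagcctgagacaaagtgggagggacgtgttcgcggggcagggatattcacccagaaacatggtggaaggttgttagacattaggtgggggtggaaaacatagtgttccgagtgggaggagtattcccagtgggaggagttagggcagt
Zfp983: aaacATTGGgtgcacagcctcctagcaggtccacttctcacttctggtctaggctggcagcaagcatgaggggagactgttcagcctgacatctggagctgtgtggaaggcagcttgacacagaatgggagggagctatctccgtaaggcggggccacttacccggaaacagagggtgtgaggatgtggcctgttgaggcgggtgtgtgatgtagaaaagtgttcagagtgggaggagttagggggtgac
The Zfp651 window was 77.6% GC with 38 CpG dinucleotides, 2 GC boxes and 1 CCAAT box. The Zfp324 window was 58.4% GC with 12 CpG and held 1 CCAAT box. The Zfp948 and Zfp983 windows, at 56.4% and 56% GC with 7 and 4 CpG, resembled each other. In a global alignment 170 of their 250 bases were identical (68%), with a longest shared run of 17 bases. Over the 2016 pairs of member promoters the median was 33.6% and the highest 72.8%, and 68 pairs reached 60% or more. The Zfp983 window held 1 CCAAT box in its first bases and the Zfp948 window none.

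RefSeq promoter windows were matched for 64 of the 74 members, 74 windows in all, each running from 250 bases before to 50 after a start. Among the 32851 windows of the table, 3.89% held CCGGAAGT, the core that ETS family factors bind, on either strand, and 14.86% (11 of 74) of the member windows did. CCAAT was in 52.7% of member windows against 37.41% of all, GGGCGG in 39.19% against 35.66%, TGACGTCA, the cyclic AMP response element, in 2.7% against 1.79%, and TATAAA in 6.76% against 13.62%. No searched motif contains another. Of the 10 higher members with a window 2 held CCGGAAGT and of the 54 lower members 8 did. The median member window had 13 CpG and 55.6% GC before the start, against 6 CpG and 52.4% over all windows.

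A KRAB box was found by the profile search in the longest annotated protein of 51 members, and in 23 none was found. A miss in this search does not show that a gene lacks the box. Members without a KRAB box are here those in which none was found. The 51 make up 68.9% of the members, and among all 391 annotated protein-coding Zfp genes the share was 60.4%. In adipocyte medium 49 of the 51 KRAB members were lower and 2, Zfp948 and Zfp184, were higher, with a median log2 fold change of -1.24, where 63.4% of all tested genes were lower and 33.8% higher. The 23 members without a KRAB box split into 13 lower and 10 higher, with a median of -1.02. After the median of ratios rescaling the KRAB members were 20 lower and 2 higher (median -0.32) and the others 8 lower and 10 higher (median -0.10). Over all tested genes 36.5% were then lower and 37.6% higher, so the lower share of the KRAB members was near that of all tested genes. Between the conditioned media 48 KRAB members were lower in adipocyte medium, 0 higher and 3 not past the threshold, while members without a KRAB box were 11 lower and 9 higher (57.2% lower and 33.8% higher over all tested genes). Rescaling gave 28 lower and 2 higher KRAB members against 7 lower and 12 higher without the box (38% and 40.8% over all tested genes). No test of the difference between these classes was made, since members are not replicates of each other.

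**Figure D2:**
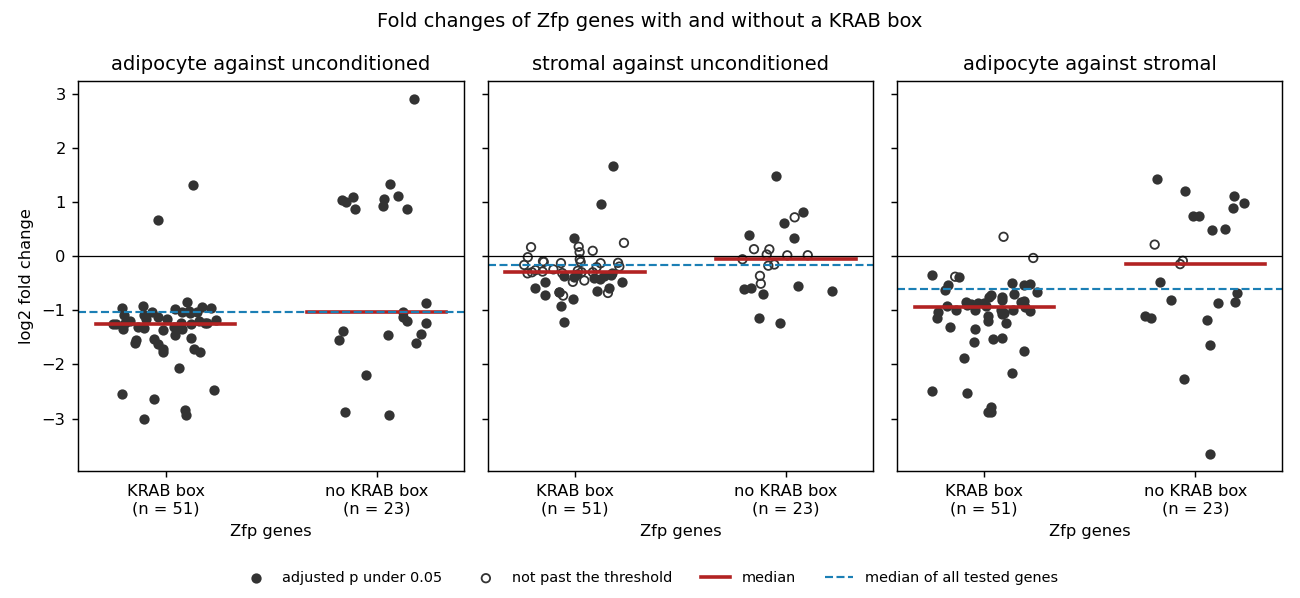
Log2 fold changes of the 51 Zfp genes with a KRAB box and the 23 without one, in each of the 3 comparisons, with filled points past an adjusted p of 0.05, red lines at the class medians and the dashed line at the median of all tested genes. The adipocyte panel shows 49 of 51 KRAB genes below 0, and the genes without the box on both sides.

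Among KRAB genes the largest falls of well-read members in adipocyte medium were those of Zfp273, Zfp324, Zfp763, Zfp213 and Zfp658. Zfp273 (ENSMUSG00000030446) had normalized counts of 379, 439 and 447 in the unconditioned samples of mice 1 to 3, 540.0, 476 and 483 in stromal and 60.4, 94.5 and 52.8 in adipocyte medium. The adipocyte samples lay far below all others, and the stromal ones above the unconditioned ones. Its log2 fold change was -2.63 (SE 0.20, adjusted p = 1.14e-07) in adipocyte medium and 0.25 (SE 0.20, adjusted p = 0.324) in stromal medium, where rescaling brought it past the threshold (0.60, adjusted p = 0.018 by limma). Of its 50-base words 24.3% occur in other genes, so its level is uncertain.

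Zfp324 (ENSMUSG00000004500) was at 707, 691 and 629 in unconditioned, 613, 497 and 521 in stromal and 82, 125 and 173 in adipocyte medium. No adipocyte sample came near the others, and the fold change was -2.47 (SE 0.22, adjusted p = 3.29e-07), against -0.32 (SE 0.22, adjusted p = 0.24) in stromal medium, where rescaling turned the sign to 0.04 and a fit of these 2 groups alone called it lower (adjusted p = 0.0352 by limma). Zfp763 went from 837 ± 50.3 (mean ± SD, n = 3) to 204 ± 57.1 in adipocyte medium, with 685 ± 156 in stromal medium (adipocyte against unconditioned -2.06). Zfp658, which has 21 fingers, went from 559 ± 15.5 to 172 ± 33.3, while the stromal samples, at 632 ± 26, all lay above the unconditioned ones without passing the test (adjusted p = 0.345 by limma) unless rescaled (0.53, adjusted p = 0.00685). Zfp213 fell from 1392 ± 102 to 408 ± 72.8 (-1.78 on the log2 scale), and 46.5% of its exon bases overlap a gene model on the other strand, so its reads cannot be assigned to 1 gene. All 5 of these falls were called under both other scalings.

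The most abundant KRAB members fell by less. Zfp386 was at 5222, 5199 and 5870.0 in unconditioned, 4358, 3759.6 and 4183 in stromal and 2840.4, 2961 and 2771 in adipocyte medium, in steps that did not overlap. Its fold change in adipocyte medium was -0.92 (SE 0.08, adjusted p = 3.07e-07). Rescaling, whose shift of 0.93 is of about the same size, brought it to 0.00, with an adjusted p of 0.987 by limma. Zfp251 went from 3168 ± 175 to 1536 ± 132 (-1.05), Zfp60 from 2099.5 ± 95.5 to 936 ± 115 (-1.17) and Zfp688, which has 2 fingers, from 2133 ± 154 to 1181 ± 60.9 (-0.85, and 0.07 after rescaling). Zfp282, with 5 fingers, fell from 1948 ± 42.8 to 633 ± 73 (-1.63), a call that held under both other scalings.

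Some KRAB members fell further but rested on few reads. Zfp786 was at 25.7, 13.9 and 13.3 in unconditioned, 12.5, 15.2 and 19.2 in stromal and 0, 2.70 and 1.95 in adipocyte medium, 49, 54 and 5 reads over each group. By reads it was 9.31-fold lower in adipocyte than in unconditioned medium (95% interval 3.73 to 29.9, counting error only). Zfp493 was at 28.8, 18.9 and 9.77 in adipocyte against 134, 119.9 and 173 in unconditioned medium (-2.93), and Zfp879 and Zfp108 had log2 fold changes of -2.84 and -2.55. The adipocyte samples of Zfp108 spread widely, at 1.44, 23.4 and 9.77, and lay below its stromal ones at 38.4, 44.9 and 68.3. These 4 genes were singled out after their values were seen, as they lie in the lowest 25% of member means, which the naming rule left out.

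Zfp366 (ENSMUSG00000050919), in which no KRAB box was found, encodes DC-SCRIPT, a nuclear receptor cofactor used as a dendritic cell gene. It was at 17.1, 7.82 and 1.77 in unconditioned and 17.5, 5.94 and 14.4 in stromal medium and had 0 reads in all 3 adipocyte samples. Against 23 reads over the unconditioned group it was at least 7.28-fold lower, and against 42 over the stromal group at least 11.2-fold lower, with a floor of 3 reads over the adipocyte group. Of 10 myeloid markers 7 were listed, 6 of them lower in adipocyte medium, where 63.4% of all tested genes were lower. In stromal medium 3 of the 7 were lower and 1, Cd14, was higher (36.6% and 21.1% of all tested genes). Their summed normalized counts were 4151 to 8054 in unconditioned, 4056 to 9211 in stromal and 772 to 1286 in adipocyte medium. Lyz2 was the largest part of the sum in unconditioned and stromal medium (means of 3314 and 3725). Of 10 B cell markers 5 were listed, all lower in adipocyte medium, with sums of 1925 to 2540, 1443 to 2559 and 481 to 519. The part of these cells in the changes of Zfp366 and of the other members was not tested.

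The 12 members that rose in adipocyte medium were mostly genes without a KRAB box. Zfp651 (ENSMUSG00000013419), a BTB domain gene also called Zbtb47, rose most. It was at 8.57, 14.8 and 10.6 in unconditioned, 34.2, 34.3 and 29.9 in stromal and 69, 133 and 78.2 in adipocyte medium. The groups stood apart in that order, and the log2 fold changes were 2.91 (SE 0.34, adjusted p = 3.34e-06) and, in stromal medium, 1.48 (SE 0.34, adjusted p = 0.00267). In the authors' deposited table its log2 fold change in adipocyte medium is 3.01 (SE 0.44). Zfp651 was among the lowest members by level and was singled out after its values were seen.

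Zfp131 (ENSMUSG00000094870), another BTB domain factor, showed the same order at a far higher level. It had 3097, 2713 and 3172 normalized counts in unconditioned, 4617, 4467 and 4682 in stromal and 6656, 6628 and 6161 in adipocyte medium, again with no overlap between any of the groups. The fold changes were 1.12 (SE 0.08, adjusted p = 5.92e-08) in adipocyte and 0.62 (SE 0.08, adjusted p = 3.22e-05) in stromal medium.

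Zfp592 (ENSMUSG00000005621), a partner of the chromatin reader Zmynd8, was the most abundant member. It was at 13613, 12269.6 and 12844 in unconditioned and 25601, 24258 and 27604 in adipocyte medium, a fold change of 1.00 (SE 0.11, adjusted p = 2.53e-06). The stromal samples were at 11719, 15948 and 11859, with mouse 2 above all unconditioned samples and the other 2 below them (0.02 (SE 0.11, adjusted p = 0.915)). That small stromal difference changed sign when the unconditioned or the stromal sample of mouse 2 was left out (-0.02 and -0.13), and after rescaling it was called higher (0.37, adjusted p = 0.0304 by limma).

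Other members without a KRAB box rose in adipocyte medium and had stromal values near the unconditioned ones. Zfp516, an activator of the brown fat programme in adipose tissue, went from 457, 435 and 476 to 1128, 861 and 878 in adipocyte medium and was at 452, 398 and 467 in stromal medium. Adipocyte mouse 1 was the highest, and all 3 adipocyte samples were above the other 6. Its fold change was 1.06 (SE 0.13, adjusted p = 4.98e-06) against -0.06 (SE 0.13, adjusted p = 0.721) in stromal medium, where the sign turned under TMM (0.09), under rescaling (0.30) and without stromal mouse 2 (0.01). Zfp821 went from 336 ± 27.7 to 852 ± 114 (1.34), Zfp280b from 2451 ± 134 to 4646 ± 181 (0.92) and Zfp180 from 3462 ± 151 to 6301 ± 100.4 (0.86). Their stromal means were 368, 2503 and 3786, none past the threshold against unconditioned medium on the authors' scale, and after rescaling all 3 were higher there.

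Zfp703, Zfp91 and Zfp219 rose in both conditioned media. Zfp703 (486, 402 and 487 in unconditioned medium), a co-repressor gene of the NET family amplified in breast cancers, was at 812, 879.9 and 726 in stromal and 942, 869 and 989 in adipocyte medium. Its conditioned samples were all above the unconditioned ones and overlapped each other, with fold changes of 1.03 (SE 0.12, adjusted p = 3.01e-06) and 0.82 (SE 0.12, adjusted p = 0.0001). Zfp91, an atypical ubiquitin ligase gene of the non-canonical NF-kB pathway, went from 1236 ± 117 to 1619 ± 108 in stromal and 2262 ± 50.1 in adipocyte medium (0.39 and 0.88). Zfp219, which encodes a partner of the cartilage factor Sox9, was at 1358 ± 46.7, 1735 ± 299 and 2895 ± 251. Its rise in adipocyte medium was 1.09 (SE 0.12, adjusted p = 1.3e-06), and its stromal rise of 0.34 (adjusted p = 0.0237) was lost in 6 of the 12 fits that left out 1 library or 1 mouse, the highest adjusted p being 0.114 by limma.

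The 2 KRAB members that rose in adipocyte medium also rose in stromal medium. Zfp948 (ENSMUSG00000067931) was at 519.9, 356 and 504 in unconditioned, 807, 769.7 and 1098 in stromal and 1163, 1226 and 1008 in adipocyte medium. All conditioned samples exceeded the unconditioned ones, and the fold changes were 1.31 (SE 0.17, adjusted p = 7.81e-06) and 0.96 (SE 0.17, adjusted p = 0.000431). Zfp184 was at 42.8, 55.6 and 34.6, 167, 111 and 148 and 82, 57.6 and 72.3 in the same order of media. On the authors' scale it was the only member with its highest mean in stromal and its lowest in unconditioned medium. Its stromal rise was 1.67 (SE 0.26, adjusted p = 0.000184). The adipocyte rise of 0.67 (adjusted p = 0.0272) was lost in 6 of 12 such fits, with an adjusted p of up to 0.191 by limma. Zfp184 was singled out after its values were seen.

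**Figure D3:**
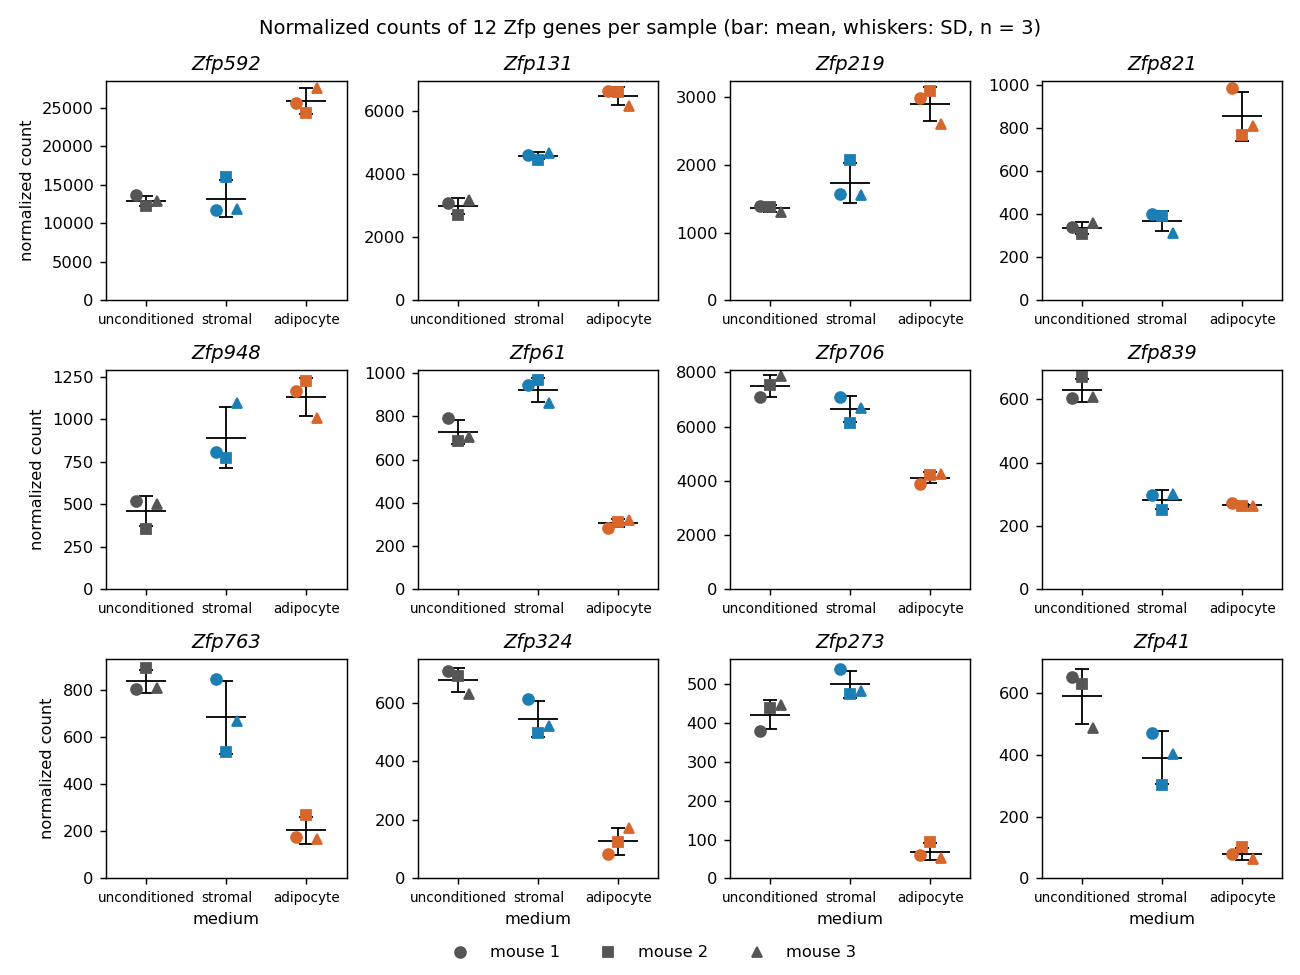
Normalized counts of 12 Zfp genes in each sample, with the mean as a bar, the SD as whiskers (n = 3) and the mouse as the marker shape, each panel with its own axis from 0. The first row and Zfp948 show genes higher in adipocyte medium, and the other panels genes lower there, with stromal values above the unconditioned ones for Zfp61 and Zfp273 and near the adipocyte ones for Zfp839.

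Of the 13 members without a KRAB box that fell in adipocyte medium, Zfp706 (ENSMUSG00000062397), a small protein with 1 finger described in embryonic stem cells, was the most abundant. It was at 7097, 7522 and 7872 in unconditioned, 7088, 6147 and 6694 in stromal and 3879, 4228 and 4247 in adipocyte medium, the adipocyte samples below all others. The change was -0.86 (SE 0.08, adjusted p = 4.07e-07), and rescaling, whose shift was larger, turned it to 0.06. Zfp41 (ENSMUSG00000047003), with 4 fingers, had the largest fall of a well-read member, from 654, 629 and 488 to 77.7, 101 and 62.5 (-2.88 (SE 0.22, adjusted p = 9.28e-08)), with stromal samples between them at 471, 302 and 402. The stromal fall of -0.60 was lost in 6 of 12 fits without 1 library or mouse (adjusted p up to 0.188 by limma), with TMM (-0.45, adjusted p = 0.0646 by edgeR) and after rescaling (-0.25, adjusted p = 0.339). Zfp422 fell from 2456 ± 150.2 to 1210.3 ± 110.2, Zfp831 from 1534 ± 102 to 558 ± 13, and Zfp523, the mouse counterpart of ZNF76, from 1258 ± 46 to 462 ± 38.3. Zfp3 was at 79.8 ± 7.61 against 368 ± 31.2 (-2.19).

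The largest falls in stromal medium were those of Zfp414, Zfp808 and Zfp839, which also fell in adipocyte medium. Zfp414 was at 764, 785 and 952 in unconditioned, 286, 350.2 and 442 in stromal and 326, 353 and 283 in adipocyte medium. Both conditioned groups lay below the unconditioned one and overlapped each other, with changes of -1.23 (SE 0.17, adjusted p = 5.8e-05) and -1.37 (SE 0.17, adjusted p = 4.69e-06). The direct difference between them was -0.15 (SE 0.17, adjusted p = 0.414), and it turned to 0.42 after rescaling, 0.15 with TMM and 0.01 without stromal mouse 3. Zfp414 shares 30.4% of its exon bases with a gene model on the same strand, so its reads are uncertain.

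Zfp839 (ENSMUSG00000021271), in which no C2H2 finger was found by pattern, fell in both conditioned media. It was at 606, 672 and 608 in unconditioned, 299.6, 250 and 302 in stromal and 272, 263 and 265 in adipocyte medium, the conditioned samples well below the unconditioned ones. The changes were -1.15 (SE 0.13, adjusted p = 1.34e-05) in stromal and -1.23 (SE 0.13, adjusted p = 1.22e-06) in adipocyte medium, and the difference between the conditioned media was -0.09 (SE 0.13, adjusted p = 0.536). That difference was 0.48 after rescaling and 0.22 with TMM. Zfp808, a KRAB gene with 22 fingers and 40.4% of its 50-base words shared with other genes, went from 197 ± 16 to 84.6 ± 4.77 in stromal and 83.1 ± 11.8 in adipocyte medium.

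Zfp113, Zfp846, Zfp825 and Zfp974 also fell in stromal medium. Zfp113 was at 1453, 1326 and 1283 in unconditioned, 839, 664 and 651 in stromal and 399.8, 607 and 678 in adipocyte medium, with stromal and adipocyte samples overlapping. The stromal change was -0.92 (SE 0.18, adjusted p = 0.000723). Zfp846 went from 819 ± 3.37 to 521 ± 44.7 (-0.65), Zfp825 from 756 ± 48.5 to 482 ± 103 (-0.67) and Zfp974 from 466 ± 13.3 to 287 ± 36.6 (-0.71). Of the 26 stromal falls 15 held in every one of the 12 fits without 1 library or mouse, and 6 of the 8 rises did. After rescaling 6 of the 26 were called lower.

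Zfp61 (ENSMUSG00000050605), a KRAB gene with 8 fingers, was the only member called in opposite directions in the conditioned media on the authors' scale and with TMM. After rescaling Zfp273, Zfp658 and Zfp607a were so called as well. It was at 793, 688 and 705 in unconditioned, 943, 967 and 859.7 in stromal and 286, 312 and 322 in adipocyte medium. The 3 groups did not overlap, with stromal samples the highest and adipocyte samples the lowest. The adipocyte fall was -1.24 (SE 0.11, adjusted p = 3.41e-07) and held under all scalings. The stromal rise was 0.34 (SE 0.11, adjusted p = 0.0199), and it missed the threshold in 7 of the 12 fits without 1 library or mouse, with adjusted p-values of 0.0585 to 0.0817 without unconditioned mouse 2 or 3 or stromal mouse 1 or 2, and up to 0.14 without mouse 2 in every group. The difference between the conditioned media was -1.59 (SE 0.11, adjusted p = 1.19e-07).

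By the order of their 3 means on the authors' scale, 53 members ran from unconditioned through stromal down to adipocyte medium. Another 10 ran the other way. In 9 members the stromal mean was highest and the adipocyte mean lowest, as in Zfp61, Zfp273, Zfp658, Zfp300 and Zfp563. The stromal mean thus lay between the others in 63 of 74 members on that scale. After rescaling 26 of the 74 turned in sign between stromal and unconditioned medium, so these orders depend on the scaling. The orders were not counted over all tested genes or after rescaling. On the authors' scale 9 members were higher in adipocyte than in stromal medium, and in none of them was a KRAB box found. They were led by Zfp651 (1.42), Zfp821 (1.21), Zfp516 (1.11) and Zfp592 (0.98). The largest differences on the lower side among well-read members were those of Zfp273 (-2.88), Zfp41 (-2.27) and Zfp324 (-2.15). The 6 members not past the threshold between these media were Zfp113, Zfp414, Zfp703, Zfp808, Zfp839 and Zfp948. Of these, Zfp703 and the KRAB gene Zfp948 were called higher in adipocyte than in stromal medium with TMM (0.51 and 0.66) and after rescaling (0.78 and 0.93), and Zfp948 also in a fit of these 2 groups alone (adjusted p = 0.0458 by limma). The calls of Zfp825 (-0.35 (SE 0.15, adjusted p = 0.0435)) and Zfp974 (-0.48 (SE 0.14, adjusted p = 0.00578)) were lost in 10 and 1 of the 12 fits without 1 library or mouse, with adjusted p-values of up to 0.27 and 0.0853 by limma, and rescaling turned them to 0.22 and 0.08.

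Of the 74 members 20 lie next to another member in the annotated order of protein-coding genes, in 11 neighbouring pairs. In 10 pairs both genes fell in adipocyte medium, where 62 of all 74 members and 63.4% of all tested genes were lower. Whether neighbours move together beyond these shares was not tested. The 10 pairs include Zfp273 with Zfp493 (-2.63 and -2.93), both among the largest falls. They also include Zfp324 with Zfp446 (-2.47 and -1.13), and in Zfp446 no KRAB box was found. The exception was Zfp948 with Zfp983, the KRAB genes whose similar promoters are shown above. Zfp983 was at 676, 587 and 710.0 in unconditioned, 458, 453 and 392 in stromal and 256, 302 and 214 in adipocyte medium. It fell in stepwise order (-1.36 in adipocyte and -0.60 in stromal medium) while Zfp948 rose (1.31 and 0.96), and no sample of either conditioned medium overlapped the unconditioned samples in either gene. After rescaling the stromal fall of Zfp983 was not past the threshold (adjusted p = 0.191 by limma), as also in 1 of the 12 fits without 1 library or mouse. Of the 50-base words of Zfp983 9.83% occur in other genes' transcripts, and of those of Zfp948 0.115%.

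**Figure D4:**
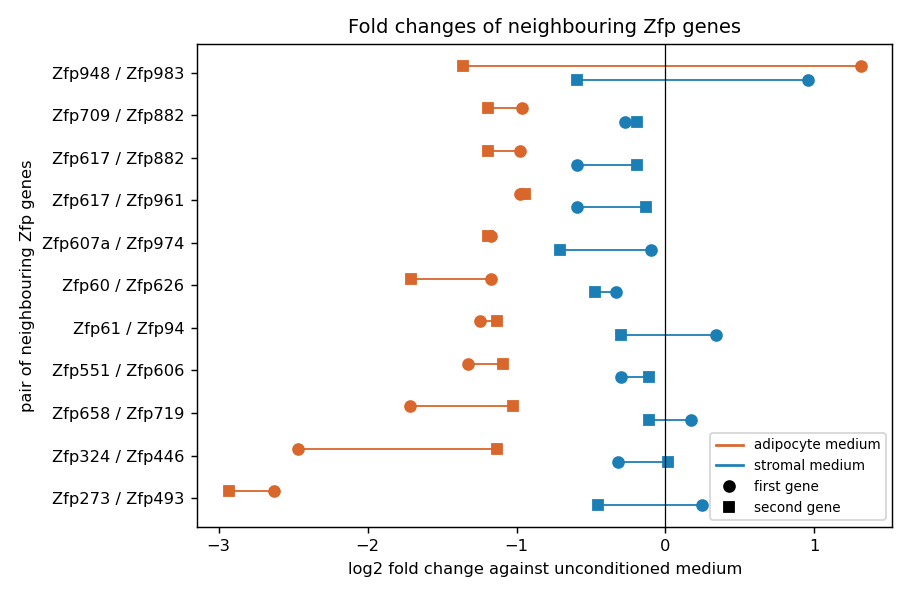
Log2 fold changes against unconditioned medium of the 11 pairs of Zfp genes that lie next to each other, adipocyte medium in orange and stromal medium in blue, with a circle for the first gene named and a square for the second. Both genes lie below 0 in adipocyte medium in 10 pairs, and Zfp948 and Zfp983 lie on opposite sides in both media.

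The number of fingers, counted by pattern, ran from 0 to 22 among the members. Of the 15 members with 0 to 5 fingers 5 were higher and 10 lower in adipocyte medium, of the 19 with 6 to 10 fingers 4 and 15, of the 27 with 11 to 15 fingers 2 and 25, and of the 13 with 16 to 22 fingers 1 and 12, where 33.8% of all tested genes were higher and 63.4% lower. In most members with few fingers no KRAB box was found either, in 12 of the 15 in the lowest bin. Across the 74 members the log2 fold change in adipocyte medium had a Spearman correlation of -0.21 with the number of fingers and of 0.55 with the mean level per kilobase. Both are descriptions over genes measured in the same libraries, and the level enters both sides of the second.

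Per kilobase of exon, members differed widely in level. Zfp592 was highest in unconditioned medium with 1742 normalized counts per kilobase, followed by Zfp706 (1505), Zfp688 (780.4) and Zfp180 (759). In adipocyte medium Zfp592 (3484), Zfp131 (1405) and Zfp180 (1382) led. At the low end were Zfp366 (1.40 in unconditioned medium), Zfp651 (1.60) and Zfp786 (3.25). The median member was at 141.3, 103.6 and 57.1 normalized counts per kilobase in unconditioned, stromal and adipocyte medium. Summed over the members, normalized counts came to 84333 to 86323 in unconditioned, 76880.0 to 79054 in stromal and 78480.2 to 79301 in adipocyte medium, since the rises of a few abundant genes such as Zfp592 and Zfp131 offset many falls. As a share of the reads on listed genes the members took 0.909% to 0.927% in unconditioned, 0.83% to 0.848% in stromal and 0.654% to 0.741% in adipocyte medium.

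Some zinc finger genes share long stretches of sequence, and reads from these can be split between genes or discarded. In 25 members no 50-base word of the longest transcript occurred in another gene. In 15 members at least 10% did, the most in Zfp213 (52.3%), Zfp955a (51.6%) and Zfp414 (43.9%). The values of those 15, which include Zfp273, Zfp825 (28.7%), Zfp422 (20.4%), Zfp974 (15.3%), Zfp108 (11.9%) and Zfp703 (11.7%), are uncertain. The other 59 members were 48 lower and 11 higher in adipocyte medium, with a median of -1.24, and 18 lower and 7 higher in stromal medium, beside the shares of all tested genes of 63.4% and 33.8% in adipocyte and 36.6% and 21.1% in stromal medium. Nextera libraries carry no strand information, and reads of overlapping genes on opposite strands, as for Zfp213 and Zfp703, cannot be told apart.

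In the authors' deposited clustering of the listed genes into 4 groups, 61 members (82.4%) are in cluster 2, which holds 55.8% of all listed genes, and 11 (14.9%) are in cluster 1, which holds 31.8%. Zfp839 is alone in cluster 3 and Zfp184 in cluster 4. That clustering is of the same 9 libraries.

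Other zinc finger genes in the table did not all move with the Zfp genes. Beside the counts below, 63.4% of all tested genes were lower and 33.8% higher in adipocyte medium. In stromal medium 36.6% were lower, and 33.8% were higher in adipocyte than in stromal medium. All 4 listed Zscan and Zkscan genes, whose products pair a SCAN domain with C2H2 fingers, were lower in adipocyte medium (median -1.86), and 3 of them were lower in stromal medium. Of 11 genes with a Zbtb symbol, most of them BTB domain factors, 7 were higher and 4 lower in adipocyte medium, with a median of 1.07, among them Zbtb21 at 1.59 and Zbtb16, encoding PLZF of innate-like T cells, at 1.22. Of 7 Kruppel-like factor genes 6 were higher in adipocyte medium and all 7 were higher there than in stromal medium, with Klf11 at 2.30 in adipocyte and -1.08 in stromal medium against unconditioned medium. Of 6 CCCH RNA-binding genes 5 were higher in adipocyte medium, Zfp36 among them at 1.49, and no Ikaros family gene was listed.

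Of 42 genes of the KRAB co-repressor machinery 4 were listed, and Trim28 and Setdb1 were not among them. All 4 were higher in adipocyte medium (33.8% of all tested genes), where most KRAB members were lower. Resf1, a partner of Setdb1, was at 1.19 in adipocyte and 1.19 in stromal medium, Sumo3, a modifier that KRAB repression uses, at 0.77 and 1.36, and Gatad2b, a subunit of the NuRD complex, at 0.94 and 0.62. Tasor, a subunit of the HUSH silencing complex, was at 0.83 in adipocyte and -0.35 in stromal medium, both past the threshold.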

How the data were processed

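RNA-seq values of 9 T cell samples were analysed. Per the labels' protocols, cDNA was made with SMART-seq v4 and libraries with Nextera XT, which keeps no strand. Tools named in the submitters' processing notes are FastQC, Trimmomatic, featureCounts and DESeq2 (no versions), and builds GRCm39, GRCh38 and hg38. Aligner, annotation and strand setting: not given in the sources used here. In the sample table the authors deposited a normalized signal per gene: 100% of the values are whole multiples of 1 read within 0.001 reads, so whole reads were recovered. The deposited cluster number is a group label from 1 to 4, not a measured value. Per the file headers, the authors' tables of changed genes hold per gene a mean signal, a log2 fold change, its SE, a Wald score and raw and adjusted p-values.

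The test was limma-trend (limma 3.58.1 under R 4.3.3) of log2(value + 1), all 9 samples in 1 fit, group only, two-sided, Benjamini-Hochberg over the 2868 of 2889 genes with a mean of at least 1, threshold 0.05. Fold changes are on that scale, which understates low genes. The smallest p of an exact permutation test of 3 against 3 is 0.1. Alternatives were median of ratios rescaling, edgeR 4.0.16 and DESeq2 1.42.0 on recovered reads (edgeR also with TMM), other pseudocounts and filters, 2 groups only, the mouse as a block, and leave-outs. limma was checked on simulated counts in which few genes changed, in both directions. The table here holds genes selected as changed, so that check does not cover the calls in this setting.

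The labels tie same-numbered samples to 1 mouse. Same-mouse deviations from the group means correlated at -0.125 to 0.262, and 1 of the 9 pairs was below 0. No replicates differed by less than sampling noise (chi-square per degree of freedom 10.22 to 96.65).

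KRAB boxes were searched with a HMMER 3.4 profile (E-value under 1e-05), built with MAFFT 7.526 from pattern matches, in translated GENCODE M21 transcripts, and fingers were counted by pattern there. RefSeq proteins had been planned and were not used here. Exon lengths, shared 50-base words and gene order come from GENCODE M21 (GRCm38). The words are those of the longest transcript of each member, and the order is that of protein-coding genes. Promoters come from RefSeq (GRCm38.p6).

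Members, gene lists and rules were chosen with earlier results of these data known. Named genes were, per comparison, the 6 largest rises and 6 largest falls past the threshold that moved 1 way in every mouse, leaving out the lowest 25% of member means, members called in opposite directions, and members with a known role (Zfp91, Zfp703 and Zfp706 are listed). The report also describes members outside this rule, chosen after their values were seen.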

Additional observations from a re-analysis of the deposited data

Results flagged for a closer look

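Zfp61 was called lower in adipocyte and higher in stromal medium, and its 2 changes against unconditioned medium differed by -1.59 on the log2 scale (adipocyte minus stromal, SE 0.11, limma adjusted p = 1.19e-07). All 3 mice had their lowest value in adipocyte and their highest in stromal medium. The size of the difference comes from the adipocyte and stromal samples alone, so the shared unconditioned samples do not enter that size. They do enter its SE and adjusted p, since the samples of every group were in the same fit.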

How the results depend on the processing

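With 3 mice, few reads on the lowest members and a table of selected genes, scaling was the choice that moved most. Under median of ratios rescaling the members were 28 lower in adipocyte medium (median -0.31), 19 higher and 6 lower in stromal medium (median 0.066, turned in sign), and 14 higher and 35 lower between the conditioned media (median -0.31). Under it 3, 26 and 11 of the 74 members turned in sign in adipocyte medium, stromal medium and between the conditioned media, of which 3, 3 and 7 had been called, and no call was replaced by one in the opposite direction. Among genes named by rule these were Zfp706 in adipocyte medium (0.0619), Zfp213 (0.10), Zfp324 (0.0389), Zfp516 (0.30), Zfp706 (0.18) and Zfp763 (0.0443) in stromal medium, and Zfp113 (0.19), Zfp414 (0.42), Zfp825 (0.22), Zfp839 (0.48) and Zfp974 (0.0842) between the conditioned media. With TMM the medians were -0.78, -0.15 and -0.56, and 0, 8 and 3 members, none of them called before, turned in sign, among genes named by rule Zfp516 in stromal medium (0.085) and Zfp414 (0.15) and Zfp839 (0.22) between the conditioned media. The cause of these shifts is the scaling factor itself, which moves every gene of a comparison.

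Without 1 library or 1 mouse the adipocyte counts were 11 to 12 higher and 62 lower, with medians of -1.27 to -1.18, the stromal counts 6 to 8 higher and 17 to 30 lower (-0.34 to -0.21), and the counts between the conditioned media 9 to 10 higher and 53 to 59 lower (-0.995 to -0.82). In stromal medium Zfp592 turned to -0.02 without unconditioned mouse 2, -0.13 without stromal mouse 2 and -0.17 without mouse 2, Zfp280b to -0.0141 without unconditioned mouse 3 and Zfp516 to 0.0114 without stromal mouse 2. Over all 12 leave-outs these ran from -0.17 to 0.13 for Zfp592, -0.0141 to 0.0613 for Zfp280b and -0.10 to 0.0114 for Zfp516. Between the conditioned media Zfp414 turned to 0.0131 without stromal mouse 3 and 0.10 without mouse 3 (range -0.31 to 0.10). The cause was not tested.

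With the mouse as a replicate block, both count models on the authors' factors, pseudocounts of 0.5 and 5, no filter and a mean of at least 20, the 3 medians kept their sign, each count of called members stayed within 1.5 times its value (26 lower in stromal medium became 26 to 30), and all 72 changes of genes named by rule kept their call. Over all 74 members the block lost 2 and gained 2 calls in stromal medium and changed none in the other comparisons. A fit of the 2 groups alone gave 33 lower in stromal medium, where the share of all tested genes rose as well, from 36.6% to 40.7%. Among genes named by rule it gained Zfp213 (limma adjusted p = 0.0497) and Zfp324 (0.0352) there. Between the conditioned media it lost Zfp825 (0.0784) and gained Zfp948 (0.0458).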
